A study of Saccharomyces cerevisiae with 60 samples.

Results

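Expression in M8, M14 and M22, 3 strains of budding yeast whose expression profiles resembled each other, was set against that in M5, M13, M32 and M34, the 4 other M strains of the study, in medium with copper sulfate. The comparison used 21 of the 60 arrays of the series, 9 of M8, M14 and M22 and 12 of M5, M13, M32 and M34, with 3 arrays per strain. All 21 arrays were 2-colour hybridizations of RNA from exponentially growing cells against the copper pool, the combined RNA of all 9 strains of the study grown in that medium. The laboratory strain S288C and the strain YPS163 were left out of the comparison, and their values are given at the end. The same 7 strains in rich medium, again with 3 arrays each and against a pool grown in rich medium, and 6 arrays of the copper pool against the rich pool are described beside it. The labels give no genotype for any strain, no copper concentration, and do not say whether replicates were separate cultures, so the spread between arrays may be technical. M strains are known as vineyard isolates, which is background and not in the labels. M8, M14 and M22 were chosen by the likeness of their measured log2 ratios, so differences between the 2 groups of strains are described here and are not independent tests.

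Values are log2 ratios of strain over pool, centred on the median of each array, and a strain mean is the mean of 3 arrays after a channel effect was fitted. A difference is the mean of the means of M8, M14 and M22 minus the mean of the means of M5, M13, M32 and M34. It is given ± its standard error. A gene is called where its adjusted p, from limma with Benjamini-Hochberg adjustment over 5524 genes, was under 0.05. The standard error and the adjusted p rest on the spread of arrays within strains, and not on the spread between strains. The direction of the deposited ratios was inferred from the data and is not stated in the labels. Of 105 pairs of copper arrays of different M strains with the same channel order, 2 had a correlation under -0.3 across all genes. The lowest was -0.46. Turning every array leaves these correlations unchanged, so they do not bear on the common direction, which remains an inference. Values below are given with the strain on top, and with the sign turned every higher call would read lower and every lower call higher. With a running median over neighbouring spots removed, 0 of these pairs were under -0.3 and the lowest was -0.13. In copper, replicate 1 of every strain had the strain in channel 2, and replicates 2 and 3 had it in channel 1. A ratio of bulk RNA cannot tell fewer cells or fewer copies of an element from less RNA per cell or per copy, and ratios to a pool do not compare the levels of different genes.

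Most of the genes that differed belong to retrotransposons or to sulfur metabolism. Ty elements are retrotransposons that copy themselves through RNA and a reverse transcriptase, and most copies in yeast belong to the Ty1 and Ty2 families. Each full copy encodes a gag frame, which makes the coat protein of the particle, and a longer gag-pol frame, which adds protease, integrase and reverse transcriptase. Yeast isolates are known to differ widely in the number and kind of their Ty copies. In sulfate assimilation, sulfate is taken up, activated and reduced to sulfide. Sulfide is then joined to a carbon chain to give homocysteine, which is methylated to methionine. Copper in excess is bound mainly by the metallothionein CUP1, a small protein rich in cysteine.

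Over the genes that varied most, M8, M14 and M22 were the most alike of the 7 strains in copper. Over 200 such genes that varied most, Pearson's r between strain means was 0.87 for M8 and M14, 0.86 for M14 and M22, and 0.72 for M8 and M22. Between one of these strains and one of the 4 others, r ran over 12 pairs with a lowest value of -0.40, a median of 0.10 and a highest value of 0.55. The highest values lay with M5, at 0.55 with M8, 0.45 with M14 and 0.39 with M22. Among M5, M13, M32 and M34 the 6 pairs had values between -0.30 and 0.31, so these 4 strains did not form a like group themselves. Over all genes r was 0.58 for M8 and M14, 0.56 for M14 and M22, and 0.20 for M8 and M22, which lay below the 0.42 of M8 and M5 and the 0.37 of M13 and M34. With a running median over neighbouring spots removed, the all-gene values of the 3 strains were 0.67, 0.70 and 0.58, and the highest of any other pair was 0.43 (M8 and M5). These correlations are across genes of arrays that share a pool and a spot layout, and they describe what chose the strains.

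M14 was close to both M8 and M22, and M8 and M22 were less close to each other. Strain means differed by more than 1 (log2) in 20 genes between M8 and M14, in 21 between M14 and M22, and in 181 between M8 and M22. With the running median subtracted these counts were 9, 1 and 14, and r over the 200 genes was 0.88, 0.90 and 0.87. No gene was called between any pair of the 3 strains, and an F-test over the 3 strains called 0 of 5524 genes (0%). Before adjustment 87 genes had a limma p under 0.05, a smaller share than the 0.05 that chance alone would give. The same test over M5, M13, M32 and M34 called 17 genes (0.308%). Between 1 of the 3 strains and M5, 0, 0 and 2 genes were called for M8, M14 and M22, against 18 to 21 genes between 1 of the 3 strains and M13.

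**Figure D1:**
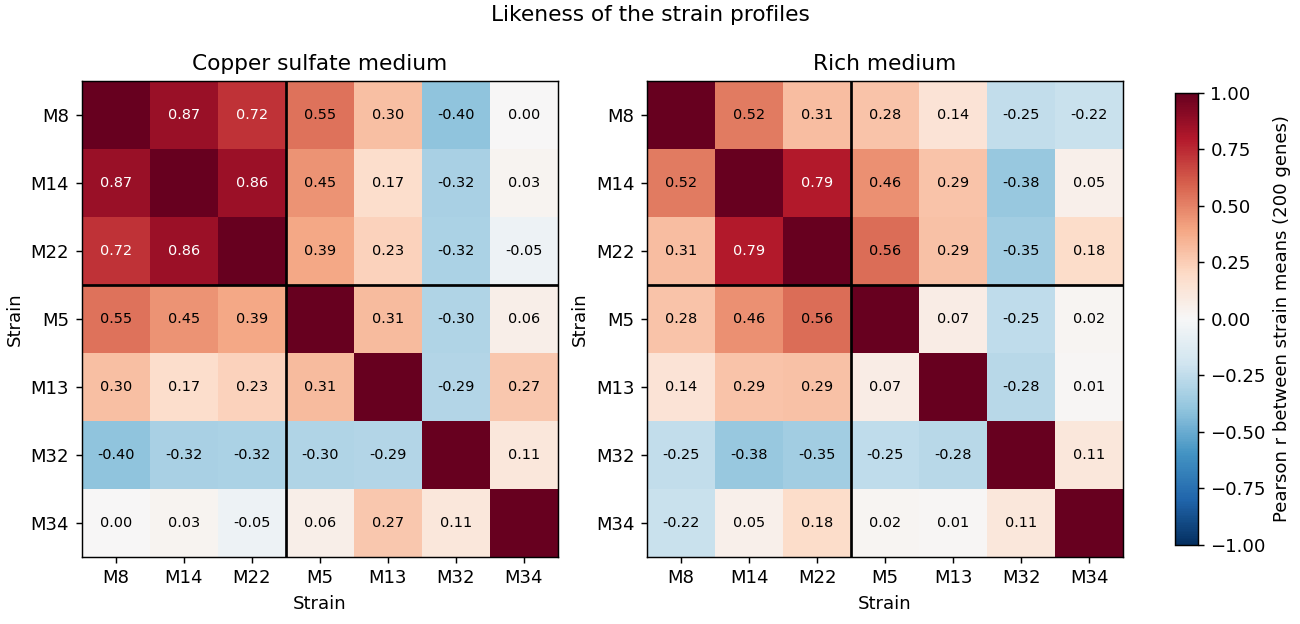
Pearson's r between strain means across the 200 genes that varied most, in copper sulfate medium (left) and in rich medium (right), with M8, M14 and M22 above and left of the black lines. In copper the 3 strains correlate with each other at 0.72 to 0.87, and their pairs with the other 4 strains reach at most 0.55.

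The arrays did not group by strain within M8, M14 and M22. Each of their 9 copper arrays correlated best with an array of another of these strains that had the same replicate number. Over pairs of these arrays, the median r was 0.77 for different strains with the same number (9 pairs), 0.45 for the same strain (9 pairs) and 0.36 for different strains and different numbers (18 pairs). Of the 12 arrays of M5, M13, M32 and M34, 8 correlated best with an array of their own strain.

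In copper, 38 of 5524 genes (0.688%) were called between M8, M14 and M22 and the 4 other M strains, of which 8 were higher (0.145%) and 30 lower (0.543%). Of the 30 lower genes, 24 were Ty reading frames, and the other 6 were MRH1, SCEI, SIS1, YER138W-A, YGP1 and YGR201C. The 8 higher genes were MET5, MET17, MET6 and MET10 of sulfate assimilation and methionine synthesis, together with HXT2, PLB2, ENB1 and YLR179C. In 31 of the 38 genes the means of M8, M14 and M22 all lay on 1 side of the means of the other 4 strains, against 351 of all genes (6.35%). In 1 gene, the Ty frame YJR027W, all 9 arrays lay below all 12 others (0.0181% of genes). All 38 differences had the same sign with the strain in either channel, against 3078 of all 5524 genes. The 38 were called on these same arrays. Neither this agreement in sign nor the separation of their strain means is therefore separate support. Over the 8 higher genes the median difference was 1.64 in replicate 1 and 0.89 in replicates 2 and 3, and over the 30 lower genes it was -2.01 and -1.09. Without replicate 1 of every strain 6 genes were called, and without M14 replicate 1 or M22 replicate 1 alone 18 and 19. Leaving out M8, M14 or M22 left 20 called genes in each case. With each strain as 1 unit 3 genes were called, 2 of them among the 38. With the running median removed 66 genes (1.19%) were called, among them 37 of the 38.

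Ty reading frames were taken as pairs of gag and gag-pol entries of the gene table that share their first base. A Ty frame without such a partner entry is not counted. Of 70 measured Ty reading frames, 24 were called lower in M8, M14 and M22 than in the other M strains and 0 higher. A difference below 0 was found in 66 of them, and the median difference was -0.86, against a median of 0.03 over all 5524 genes. Among all genes 2408 had a difference below 0. In 31 frames the means of M8, M14 and M22 all lay below the other 4 strains, beside 177 of all genes (3.2%). Near-identical copies share hybridization on such arrays, so these frames are not separate measurements of separate copies. Between the copper pool and the rich pool 0 of the 70 were called (limma), and their median difference was -0.07.

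The differences were larger in the gag-pol frames than in the gag frames. Of 35 gag-pol frames 21 were called lower, with a median difference of -1.26. Of 35 gag frames 3 were called lower, with a median of -0.47. Families were told apart by the length of the gag frame in the R64 gene table, which is slightly longer in Ty1 than in Ty2. By this rule 15 of 24 Ty1-length gag-pol frames were called lower (median -1.31), and 5 of 8 Ty2-length ones (median -1.17). In all 8 of the Ty2-length frames the means of M8, M14 and M22 lay below the other 4 strains. YHR214C-B, of neither length, was called lower with a difference of -1.09, while YGR109W-B and YHL009W-B, also of neither length, had differences of 0.37 and 0.32 and were not called.

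YJR027W, a gag-pol frame of the Ty1 length, had the widest separation. Its log2 ratios were -3.01, -2.07 and -2.28 in M8, -2.98, -2.62 and -2.31 in M14, and -2.37, -2.81 and -2.16 in M22. They were -0.24, -1.93 and -0.34 in M5, 0.17, 1.10 and 1.16 in M13, 0.42, -0.54 and 0.40 in M32, and 0.89, 0.16 and 1.45 in M34. The 9 arrays of M8, M14 and M22 all lay below the lowest array of the other strains, which was M5 replicate 2. The difference was -2.74 ± 0.27.

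YPL257W-B, another gag-pol frame of the Ty1 length, showed how the 4 other strains split. Its lowest, median and highest ratios were -3.12, -1.58 and -0.30 in M8, M14 and M22, against -1.16, 0.27 and 2.22 in the other strains. The groups overlapped, with the means of M5 (-0.91) and M13 (-0.60) nearer to M8, M14 and M22 (-2.29, -1.72 and -1.5) than those of M32 (0.94) and M34 (1.74) were. The difference was -2.13 ± 0.30. The gag-pol frame YOL103W-B (-2.02 ± 0.35) and the gag frame YBL005W-A (-2.0 ± 0.36) had the same order of groups, with M32 and M34 above 0 and M5 and M13 below it.

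The strain that stood highest depended on the family. Over the 24 Ty1-length gag-pol frames the medians of the strain means were -1.60 in M8, -1.09 in M14 and -1.21 in M22, against -0.69 in M5, -0.57 in M13, 0.37 in M32 and 0.92 in M34. M34 was the highest of the 4 other strains in 17 of these frames, M13 in 6, M32 in 1 and M5 in 0. Over the 8 Ty2-length gag-pol frames the medians were -1.19 in M8, -1.13 in M14 and -0.90 in M22, against -0.38 in M5, 1.18 in M13, -0.24 in M32 and -0.30 in M34. There M13 was the highest of the 4 in all 8. YCL019W, one of them, had a mean of 1.26 in M13, and its means in M5, M32 and M34 were -0.38, -0.24 and -0.47. The means of M8, M14 and M22 in this frame were -1.37, -1.26 and -0.90. In the 6 Ty1-length frames with M13 highest, M13 had a median of 1.16, against -0.69 in the 18 other Ty1-length frames. In M8, M14 and M22 the 2 kinds of frame had like medians, between -1.04 and -1.46 in the 6 frames and between -1.04 and -1.62 in the 18.

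**Figure D2:**
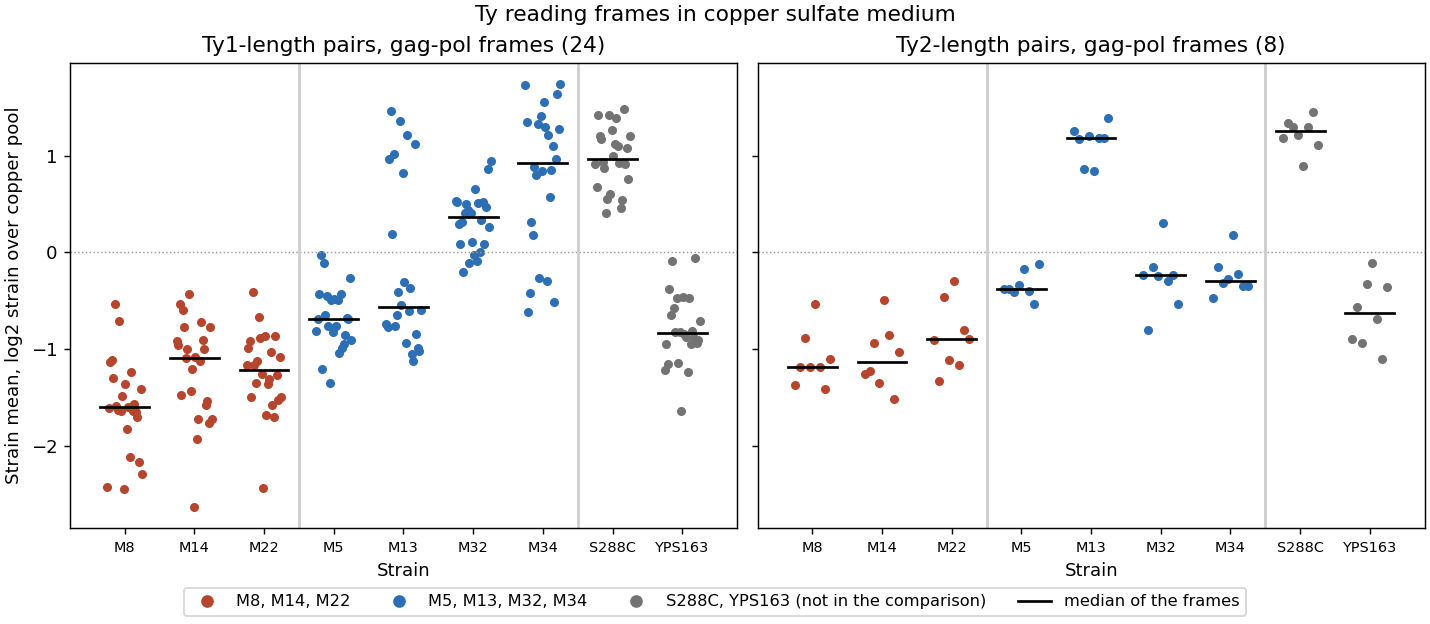
Strain means (log2 strain over copper pool) of the gag-pol frames of the Ty1 length (left, 24 frames) and of the Ty2 length (right, 8 frames), 1 point per frame, with the median of each strain as a black line. Medians of M8, M14 and M22 lie between -1.60 and -0.90 in both families, and the highest M strain is M34 at 0.92 on the left and M13 at 1.18 on the right.

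Like most genes, the called Ty frames differed by more in replicate 1, the only copper replicate with the strain in channel 2. The difference was larger there in 23 of 24 frames, against 3709 of all 5524 genes. Channel and replicate number cannot be told apart here. Over the 24 frames the median difference was -2.01 in replicate 1 and -1.07 in replicates 2 and 3. The sign was the same in both for all 24, which were called on these same arrays, against 3078 of 5524 genes. Without replicate 1 of every strain 2 Ty frames were called, and without replicate 2 or replicate 3 of every strain 23 and 19. Leaving out 1 strain at a time left between 9 (without M8) and 30 (without M5) called frames, and with the running median subtracted 35 were called. The median over the 70 frames stayed between -1.12 and -0.57 in 42 alternatives. YER138W-A, a short frame of 105 bases that lies beside the Ty frame YER138C, was also lower, with means of -1.67, -1.73 and -1.60 in M8, M14 and M22, against -0.56 in M5, 1.09 in M13, -0.47 in M32 and 2.49 in M34 (difference -2.30 ± 0.29).

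Of 34 measured genes of sulfate assimilation and methionine synthesis, 4 were called higher in M8, M14 and M22 and 0 lower, with M14 and M22 high and M8 nearer to the other strains. In the list 3 members had a difference below 0, and the median difference was 0.39, against 0.03 over all genes. In 8 members the means of M8, M14 and M22 all lay above the other 4 strains, beside 174 of all genes (3.15%). The copper pool had 1 called member, MET17, which was higher in the copper pool than in the rich pool by 1.19 ± 0.17 (adjusted p = 0.002835, limma), a call that was lost without pool replicate 1 (adjusted p = 0.06714, limma).

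MET5 and MET10 encode the subunits of sulfite reductase, the enzyme that makes sulfide. MET5 had ratios of -0.57, -0.20 and 0.11 in M8, 1.47, 0.19 and 1.07 in M14, and 2.28, 0.70 and 0.56 in M22. It had ratios of -3.47, -0.43 and -1.16 in M5, -1.97, -0.63 and -1.22 in M13, -0.90, 0.15 and -0.29 in M32, and -0.86, -0.67 and 0.52 in M34. The arrays of the 2 groups overlapped, mainly through M8 on one side and M32 and M34 on the other. The difference was 1.54 ± 0.36. MET10 had strain means of -0.13, 0.75 and 0.98 in M8, M14 and M22, against -0.39, -1.27, -0.51 and -0.30 in M5, M13, M32 and M34, a difference of 1.15 ± 0.25.

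MET17 encodes O-acetylhomoserine sulfhydrylase, which joins sulfide to the carbon chain. Its ratios were -1.43, -0.14 and 0.07 in M8, 0.90, 0.42 and 0.53 in M14, and 1.5, 0.66 and 0.21 in M22. They were -1.80, -0.23 and -0.75 in M5, -3.41, -1.71 and -0.91 in M13, -1.19, -0.27 and -0.11 in M32, and -1.38, -1.55 and -0.35 in M34. All arrays of M14 and M22 lay above all 12 arrays of the other strains, and those of M8 overlapped with them. The difference was 1.44 ± 0.35. MET6, the methionine synthase, had ratios of -1.22, 0.15 and -0.31 in M8, 1.10, 0.74 and 1.03 in M14, and 1.33, 0.89 and 0.77 in M22. In the other strains its means were -0.24 in M5, -2.38 in M13, -0.19 in M32 and -0.80 in M34. Here M14 and M22 were high, M13 was low, and M8 (mean -0.52) lay below M5 and M32, with a difference of 1.34 ± 0.30.

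The other members had smaller differences and were not called. MET3, the ATP sulfurylase that activates sulfate, had a difference of 1.04 ± 0.28, with means of -0.43, 0.92 and 1.02 in M8, M14 and M22, against -0.63, -1.09, -0.49 and 0.06 in M5, M13, M32 and M34. The S-adenosylmethionine synthetase SAM1 had a difference of 0.87 ± 0.28, beside 0.34 ± 0.31 in its paralogue SAM2. Among the sulfate permeases, SUL2 had 0.84 ± 0.25 and SUL1 0.31 ± 0.24. The methylenetetrahydrofolate reductase MET13 had 0.76 ± 0.30 and the homoserine acetyltransferase MET2 had 0.65 ± 0.24. The regulators of the pathway were close to 0 or slightly higher, at 0.21 ± 0.26 for MET4, 0.54 ± 0.25 for MET28, -0.02 ± 0.22 for MET31, -0.01 ± 0.23 for MET32 and -0.03 ± 0.24 for CBF1.

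Over the 34 members the medians of the strain means were -0.08 in M8, 0.27 in M14 and 0.57 in M22, against -0.16 in M5, -0.37 in M13, -0.19 in M32 and -0.11 in M34. M8 thus lay near the 4 other strains in these genes, and M14 and M22 carried most of the difference. Without M14, without M22 or without M13 none of the members was called, and without M8 6 were called. The median difference of the list was 0.77 in replicate 1 and 0.27 in replicates 2 and 3, and 1 member was called without replicate 1 of every strain. With no centring of the arrays the median of all genes moved to -0.17 and no member was called. The median difference of the list stayed between 0.19 and 0.51 in 42 alternatives.

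YGR201C, a gene of unknown function, had the most negative difference of all 5524 genes, -3.28 ± 0.45. Its lowest, median and highest ratios were -6.04, -4.96 and -4.66 in M8, M14 and M22, against -6.07, -2.17 and 3.68 in the other strains. M32 alone was above 0, with a mean of 2.72, and M13 (-4.86) and M34 (-3.46) were nearer to M8, M14 and M22 (-4.88, -5.39 and -5.09) than to M32. M5 had a mean of -1.75. Without M32 the gene was not called.

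MRH1 encodes a plasma membrane protein related to Hsp30. Its ratios were -2.26, -1.87 and -1.80 in M8, -2.49, -2.19 and -2.15 in M14, and -1.48, -2.62 and -1.37 in M22. They were -2.03, -1.77 and -0.71 in M5, 1.89, 0.87 and 1.38 in M13, 0.03, 0.15 and -0.38 in M32, and -0.60, -0.89 and -1.63 in M34. Arrays of M5 and 1 array of M34 overlapped with M8, M14 and M22, and M13 lay highest. The difference was -1.72 ± 0.24.

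SCEI is a homing endonuclease encoded in the mitochondrial genome. It had means of -1.19, -1.13 and -1.12 in M8, M14 and M22, against 0.39, 1.09, 0.07 and 0.25 in M5, M13, M32 and M34. The lowest, median and highest arrays were -1.88, -1.43 and -0.32, against -0.88, 0.28 and 1.91. The difference was -1.60 ± 0.35. Of 18 measured mitochondrial frames it was the only one called in copper, and their median difference was 0.09.

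SIS1, a J-protein co-chaperone of Hsp70, had means of -0.75, -0.86 and -0.68 in M8, M14 and M22, against 0.69, -0.13, -0.38 and 0.82 in M5, M13, M32 and M34 (difference -1.01 ± 0.26). YGP1, a secreted glycoprotein of the cell wall made under stress, had means of -1.71, -1.30 and -1.40 in M8, M14 and M22, against -0.88, 0.03, -0.13 and -0.61 in M5, M13, M32 and M34 (difference -1.08 ± 0.27). Both were higher in the copper pool than in the rich pool, SIS1 by 1.36 ± 0.16 (adjusted p = 0.0006271, limma) and YGP1 by 1.02 ± 0.19 (adjusted p = 0.01523, limma). The pool call of YGP1 was lost without pool replicate 3 (adjusted p = 0.4717, limma), and those of both genes without a channel effect (0.07757 for SIS1 and 0.08946 for YGP1). Both were also among the less stable strain calls, called in 16 (SIS1) and 17 (YGP1) of 42 alternatives.

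The 4 higher genes outside sulfur metabolism had differences near 1. Of 42 alternatives, HXT2 was called in 15, PLB2 in 26, ENB1 in 30 and YLR179C in 35. The glucose transporter HXT2 had means of 0.44, 0.60 and 0.92 in M8, M14 and M22, against 0.26, -0.13, -0.80 and -0.61 in M5, M13, M32 and M34 (difference 0.97 ± 0.25). The phospholipase B gene PLB2 had its lowest, median and highest arrays at 0.28, 0.49 and 0.91 in M8, M14 and M22, against -1.92, -0.30 and 0.50 in the other strains, with a difference of 0.95 ± 0.22. Only M5 replicate 1 reached into the range of M8, M14 and M22 in this gene. ENB1, a transporter of ferric enterobactin, had means of -0.46, 0.56 and 0.74 in M8, M14 and M22, against -1.28, -0.84, -0.33 and -0.14 in M5, M13, M32 and M34 (difference 0.93 ± 0.21). YLR179C, of unknown function, had 0.28, 0.59 and 0.78 in M8, M14 and M22, against -0.21, -1.68, 0.07 and 0.40 in M5, M13, M32 and M34, so that M13 stood apart from all others (difference 0.90 ± 0.18).

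**Figure D3:**
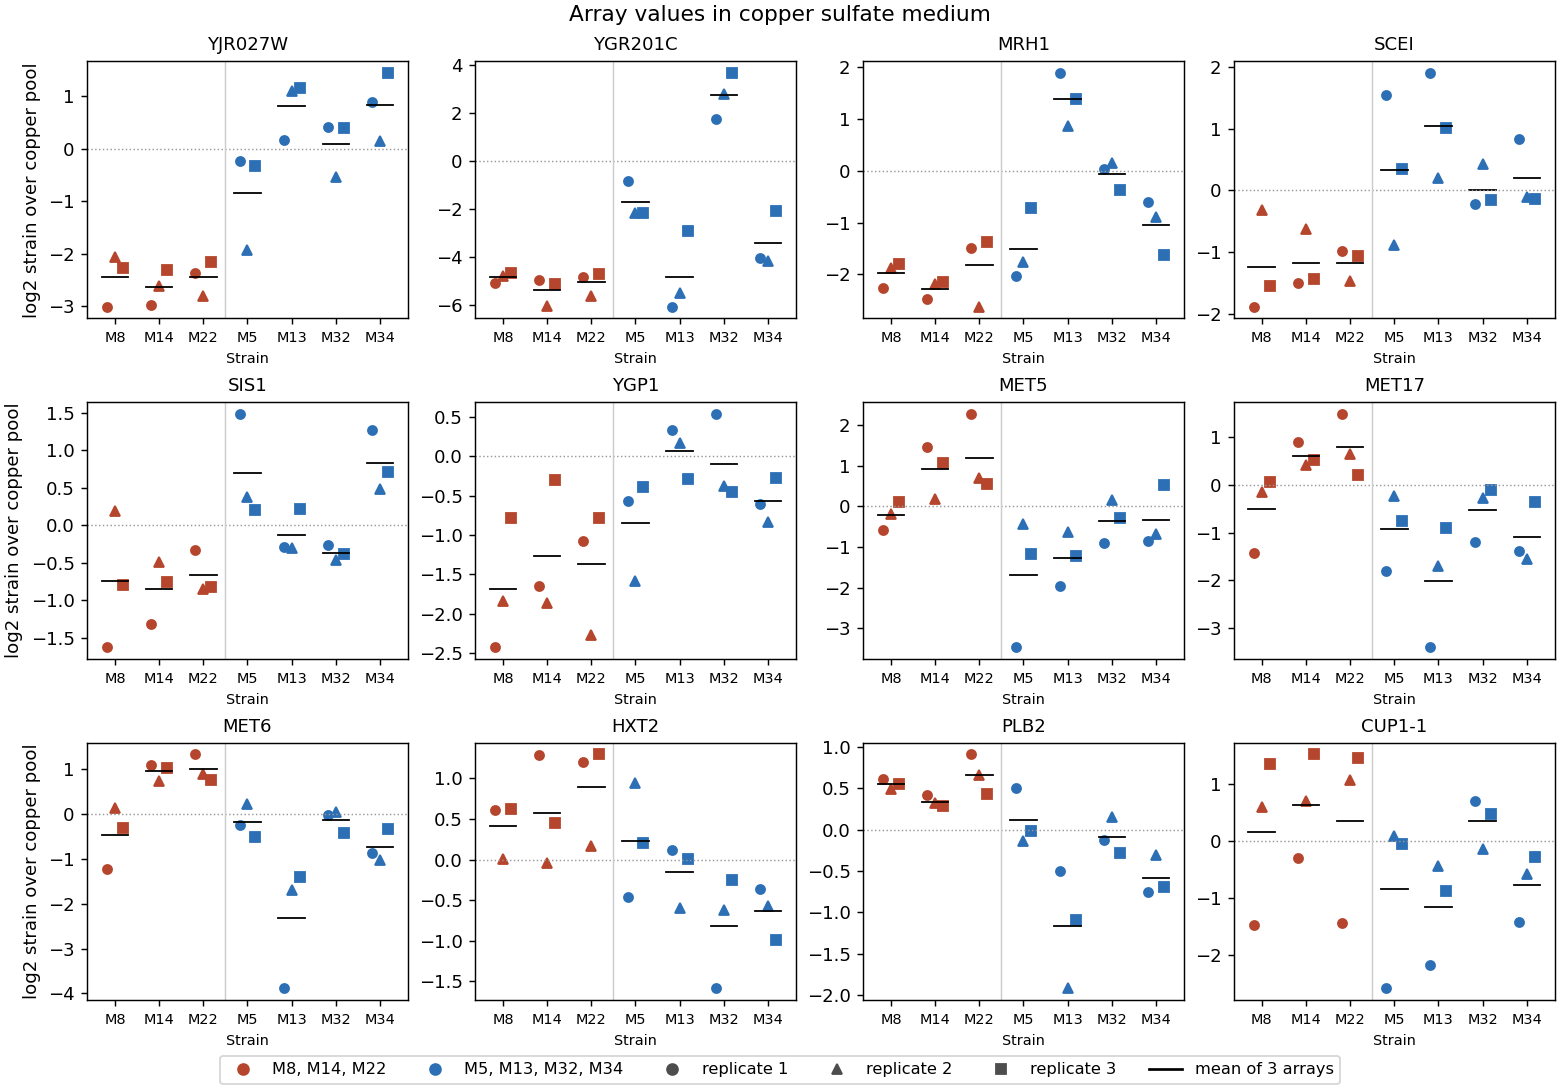
Array values (log2 strain over copper pool) of 12 genes in copper, 1 marker per array with its shape for the replicate and a black line at the plain mean of 3 arrays, M8, M14 and M22 left of the 4 other strains. In YJR027W all 9 arrays of M8, M14 and M22, at -2.07 or below, lie under all 12 others, which start at -1.93, and in YGR201C only M32 is above 0.

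None of the 14 measured genes of copper homeostasis was called, and their median difference was 0.06. CUP1-1, the metallothionein gene, had ratios of -1.48, 0.59 and 1.36 in M8, -0.31, 0.70 and 1.52 in M14, and -1.45, 1.07 and 1.45 in M22. It had ratios of -2.59, 0.09 and -0.05 in M5, -2.18, -0.44 and -0.88 in M13, 0.70, -0.14 and 0.47 in M32, and -1.43, -0.59 and -0.28 in M34. In replicates 2 and 3 the arrays of M8, M14 and M22, at 0.59 to 1.52, lay above those of the other strains, at -0.88 to 0.47, while in replicate 1 the groups overlapped. The difference was 0.99 ± 0.41, and that of the near-identical CUP1-2 was 0.93 ± 0.43. CUP1-1 was higher in the copper pool than in the rich pool by 5.38 ± 0.53 (adjusted p = 0.0001606, limma).

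Among the other copper genes, the reductase FRE1 had a difference of 0.69 ± 0.21, with means of -0.32, 0.44 and 0.42 in M8, M14 and M22, against -0.26, -0.88, -0.15 and -0.73 in M5, M13, M32 and M34. Superoxide dismutase SOD1 had -0.36 ± 0.23, the metallothionein CRS5 -0.16 ± 0.20, the copper transporter CTR3 0.15 ± 0.36 and the copper chaperone ATX1 0.44 ± 0.20. In the pools SOD1 was higher in copper by 1.26 ± 0.22 (adjusted p = 0.01323, limma) and FRE1 fell by 0.86 (adjusted p = 0.04203, limma). Both of these pool calls were lost without pool replicate 3 (adjusted p = 0.2326 for SOD1 and 0.6352 for FRE1, limma). They were also lost without pool replicate 1, with arrays scaled to an equal MAD and with no channel effect. The pool call of FRE1 was further lost without centring and without pool replicate 2, 5 or 6.

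Genes that were higher in the copper pool tended to lie lower in M8, M14 and M22. The pools called 78 of 5524 genes (1.41%) between copper and rich medium, 65 higher (1.18%) and 13 lower (0.235%). Without pool replicate 3 they called 15, and without pool replicate 1 they called 31. Of the 65 higher genes, 59 had a difference below 0 between the strain groups in copper, with a median of -0.40, beside 2408 of all 5524 genes and a median of 0.03. Of the 65 genes 2 were called lower (SIS1 and YGP1) and 1 higher (MET17). Of the 13 genes lower in the copper pool, 3 had a difference below 0, and the median was 0.22. In rich medium 50 of the 65 genes had a difference below 0, with a median of -0.15. Beside this, 2739 of all 5524 genes were below 0 in rich medium, with a median of 0.0026. Without M8, however, 28 of the 65 were below 0 in rich medium, with a median of 0.05. The median over the 65 genes was -0.74 in replicate 1 and -0.19 in replicates 2 and 3, and between 52 and 60 of the 65 were below 0 in copper in 42 alternatives. The 65 genes are not independent of each other and were not tested as a group.

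Lists with calls in the pools differed in how far they leaned the same way. For scale, the pools called 78 of all 5524 genes (1.41%), and 15 without pool replicate 3. Among all genes 2408 had a difference below 0 between the strain groups in copper. The 36 oxidative stress genes, with 6 pool calls, had 20 below 0 and a median of -0.05, and the copper homeostasis genes, with 4 pool calls, had 5 of 14 below 0. Of 34 genes for heat shock proteins and chaperones 29 had a difference below 0 in copper, 1 was called lower (SIS1), and the median was -0.21, against 0.08 in rich medium. In the pools 12 of them were called. SSA4, a heat-inducible Hsp70, had means of -0.88, -0.57 and -0.50 in M8, M14 and M22, against 0.13, -0.33, -0.09 and 0.45 in M5, M13, M32 and M34 (difference -0.69 ± 0.24, not called). Of 31 genes of trehalose, glycogen and general stress 25 were below 0 and 1 was called lower (YGP1), with a median of -0.29. MSC1 had the largest pool value among the genes named here after CUP1-1 and CUP1-2, 1.92 ± 0.17 (adjusted p = 9.464e-05, limma), and a difference of -0.99 ± 0.37 between the strain groups, with M5 (-1.66) as low as M8, M14 and M22 (-1.53, -1.21 and -1.31). Of 31 proteasome genes 28 were below 0. In 12 of them the means of M8, M14 and M22 lay below all 4 others, beside 177 of all genes (3.2%). None of the 31 was called between the strain groups, and their median was -0.21 in copper and 0.02 in rich medium. The subunit gene PRE10 had -0.63 ± 0.27.

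The 134 cytosolic ribosomal protein genes had a median difference of 0.13, with 23 above and 5 below in all strain means and none called. Among all 5524 genes, 174 (3.15%) lay above and 177 (3.2%) below in all strain means. The 27 iron uptake genes had a median of 0.06 and 1 call, ENB1, while the siderophore transporter SIT1 had 0.82 ± 0.27. The 13 genes of the zinc regulon had a median of 0.20 and no call. ZRT1, the high-affinity zinc transporter, had a difference of 0.90 ± 0.38 and was lower in the copper pool (it fell by 1.99, adjusted p = 0.003999, limma, and 0.1571 without pool replicate 3). Of 35 lists, 8 held at least 1 called gene.

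Genes of several other functions were looked at by name, and those given here were not called. YHB1, the flavohemoglobin that removes nitric oxide, had the largest positive difference of all genes, 1.66 ± 0.51, and was not called. Its means were 0.12, 0.60 and 0.69 in M8, M14 and M22, against 0.23 in M5, 0.84 in M13, -3.64 in M32 and -2.19 in M34, so that M5 and M13 lay with M8, M14 and M22. The asparaginase gene ASP3-1 had -1.29 ± 0.50, with M32 at 1.62 and the other 6 strains between -2.84 and -1.08. The phosphate transporter PHO84 had 0.76 ± 0.27. The sulfite pump SSU1 had 0.11 and its activator FZF1 had -0.15. The regulators HAP1 and FLO8 had 0.10 and -0.04, the water channel AQY2 0.06, the sodium pump ENA1 -0.33, and the mating genes HO, STE2 and STE3 had 0.04, 0.49 and -0.15. Differences this small changed sign between alternatives for SSU1, FZF1, HAP1, FLO8, AQY2, ENA1, HO and STE3, and likewise for CRS5 and CTR3.

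In rich medium the 2 groups of strains differed in the same direction for all 38 genes called in copper. Of the 38 differences 34 were smaller there. The 38 genes were picked by their copper values, so smaller differences in other arrays are not read as an effect of the medium. The same counts over all genes are not given. The rich arrays called 20 of 5524 genes (0.362%), 3 higher (0.0543%) and 17 lower (0.308%), and 15 of them were also called in copper. The likeness of the strains may have been judged on these arrays too, so this is a description. The 15 genes were all lower and comprised 11 Ty frames with MRH1 (-1.62), SCEI (-1.86), YER138W-A (-2.13) and YGR201C (-3.17). YJR027W had a difference of -2.34 in rich medium. The median over the 70 Ty frames was -0.66, and none of the 4 called sulfur genes was called, with differences of 1.10 for MET5, 1.18 for MET17, 1.19 for MET6 and 0.76 for MET10.

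The 5 genes called only in rich medium had differences of the same sign in copper. The mitochondrial intron frame AI1 had 2.11 ± 0.50 in rich medium and 1.62 ± 0.50 in copper, and ATP6, a mitochondrial subunit of ATP synthase, had 1.38 ± 0.33 and 0.97 ± 0.33. In both, M13 and M34 were the low strains in copper, at -1.64 and -1.35 for AI1 and at -1.46 and -1.55 for ATP6. PHO84 had 1.17 ± 0.27 in rich medium. YAR009C had -1.79 ± 0.35 in rich medium and -1.22 ± 0.35 in copper, and YLR035C-A had -1.81 ± 0.42 and -1.49 ± 0.42. Neither is among the paired Ty frames counted here, and that rule leaves out any Ty frame without a partner entry.

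The change of the difference between media called 0 of 5524 genes (0%). Before adjustment 89 genes had a limma p under 0.05, a smaller share than the 0.05 that chance alone would give. ENB1 had the clearest contrast among the called genes, with differences of 0.93 in copper and 0.09 in rich medium, and its difference between media was 0.84 ± 0.30. The profiles of M8, M14 and M22 were less alike in rich medium before the spot trend was removed. Over the 200 genes r was 0.52 (M8 and M14), 0.31 (M8 and M22) and 0.79 (M14 and M22), beside 0.56 for M22 and M5. With the running median subtracted, r was 0.82, 0.75 and 0.81. Over all genes r in rich medium was -0.18, -0.48 and 0.60 for these pairs, beside 0.60 for M22 and M34. With the running median subtracted the all-gene values were 0.43, 0.26 and 0.51, beside 0.33 for M22 and M5. Over all genes M8 and M22 were thus not among the most alike strains in rich medium.

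**Figure D4:**
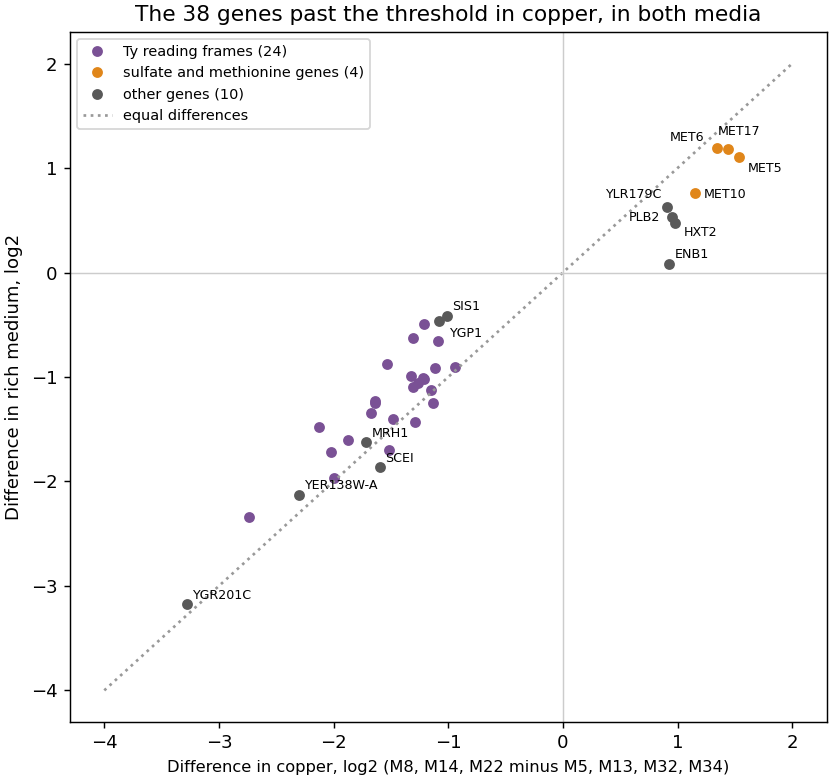
Difference of M8, M14 and M22 minus M5, M13, M32 and M34 (log2) in copper (x axis) and in rich medium (y axis) for the 38 genes called in copper, coloured by Ty frames (24), sulfate and methionine genes (4) and other genes (10), with a dotted line of equal differences. All 38 points share their sign in both media, and 34 lie nearer to 0 in rich medium, in genes that were picked by their copper values.

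The strains left out of the comparison did not take the same side in all genes. In the 30 genes lower in M8, M14 and M22, S288C was nearer to the 4 other strains in 29, with a median of 1.15, and YPS163 was nearer to M8, M14 and M22 in 17, with a median of -0.71. Without the Ty frames, which share hybridization, YPS163 was nearer to the 4 other strains in 4 of 6 genes, with a median of -0.40. For scale, the group medians over these genes were -1.39 in M8, M14 and M22, against 0.06 in the 4 other strains. In the 8 genes higher in M8, M14 and M22, S288C and YPS163 were each nearer to the 4 other strains in 7. Over the Ty1-length gag-pol frames the median of S288C was 0.96 and that of YPS163 -0.83, and over the Ty2-length ones they were 1.25 and -0.63. The Ty spots of the array carry frame names of the reference genome, which is that of S288C.

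The 4 strains on the other side of the comparison differed among themselves in 17 genes, 5 of which were among the 38 called genes: MRH1, YER138W-A, YGR201C, YLR179C and YPL257W-B. M13 was highest in MRH1 and lowest in YLR179C, M34 was highest in YER138W-A and YPL257W-B, and M32 was highest in YGR201C. In YER138W-A the means of M13 and M34, 1.09 and 2.49, lay above 0 and those of M5 and M32, -0.56 and -0.47, below it. Treating each strain as 1 unit, 3 against 4, gave 3 called genes, of which YJR027W and SCEI were among the 38. The other one, PKR1, was higher (difference 1.30) and was named after its value was seen.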

How the data were processed

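Per the labels, RNA was coupled to Cy3 or Cy5 through amino-allyl dUTP, arrays were scanned on GenePix equipment, and poor spots were flagged on the scanned picture. The deposited values were log2 ratios of the 2 channels for 60 arrays of 6144 rows, with 0 missing values. How they were normalized and which dye lay in which channel is not given in the sources used here. Array medians ran over -0.77 to 1.16 (log2), so each array was centred on its median here and turned by channel to strain over pool. For strain arrays the direction was inferred because the linear ratios of 9 strains to their pool must average 1: the median absolute log2 of that average over 200 variable genes in copper was 0.111 for channel 1 over channel 2 and 0.376 for the opposite. For pool arrays it rests on CUP1-1. The platform table named 5541 rows, of which 5536 matched an R64 gene. The 603 unnamed rows were not used, and rows of 17 genes were averaged, giving 5524 genes. Near-identical copies share hybridization.

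One limma model (limma 3.58.1, R 4.3.3) held the 54 strain arrays, with 18 group means and a channel effect, and a second held the 6 pool arrays, both with Benjamini-Hochberg adjustment at 0.05. Tables and figures were made in Python 3.11.15 (NumPy 2.4.6; pandas 2.3.3; matplotlib 3.10.9). Strains, the 35 gene lists and the rule for naming genes were chosen with earlier results of these data known, and the rule for Ty frames was set after calls were seen. The rule named the 15 most positive and 15 most negative called genes whose strain means did not overlap, 2 genes per list and a set of other names, of which CTR1 and AQY1 were not analysed here. Genes named outside it, including 14 called ones, were picked with their values in view. The number of arrays limits the precision. In simulated data 200 of 5524 genes differed between the strain groups in copper. Of these 82.7% were recovered at a difference of 1 (log2) and 98.7% at 1.5, with 9.7 and 13 false calls on average. The simulated arrays had independent noise, equal strain means within each group, no spot trend and no leaning together of same-numbered arrays. These rates therefore do not give the power of the comparison in the real arrays. Alternatives were no centring, equal MAD, a running median of 15 by 15 spots, no channel effect, robust moderation, fewer arrays, strain as unit, a replicate block, and leaving out arrays, replicate numbers or strains.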

Additional observations from a re-analysis of the deposited data

Results flagged for a closer look

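Single samples were compared with the rest of their group by the gap to the nearest value over the whole range of the group, and 13 of 177 groups had a sample past the 95% limit, where chance alone gives about 8.8. In 4 Ty frames of the Ty2 length M13 stood above the other 3 strains of its side: its mean was 1.26 in YCL019W (next -0.24), 1.75 in YDR034C-C (next -0.00), 1.21 in YDR261W-B (next -0.24) and 1.19 in YGR161W-B (next -0.23). Among the arrays of M8, M14 and M22, FZF1 was lowest in M8 replicate 1 (-1.09, next -0.12) and SSU1 highest in M22 replicate 1 (1.21, next 0.06). Among the 6 pool arrays, replicate 4 was lowest in RDL1 (-0.71, next 0.61), in SOD1 (-0.0055, next 1.22) and in the Ty frames YBL005W-B (-1.63, next -0.24), YHR214C-B (-1.54, next -0.33) and YML039W (-1.33, next -0.28). Pool replicate 1 was lowest in YML045W (-0.99, next -0.13) and highest in YNL284C-B (0.81, next 0.13).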

How the results depend on the processing

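No called gene changed direction in any alternative. Of 75 named genes not called in copper, 17 had differences on both sides of 0 among the alternatives. For the genes higher in the copper pool, leaving out M8 in rich medium turned the median to 0.05, in place of -0.15. The 38 copper calls (8 higher, 30 lower) became 78 with arrays scaled to an equal MAD, 66 (17 higher, 49 lower) with the running median subtracted, 35 (0 higher, 35 lower) without centring, 3 with strain as unit (2 of them among the 38), 2 with strain as unit and the running median, 20 without M8, without M14 or without M22, 22 without M13 or M34, 18 to 40 without 1 array, and 6 to 37 without 1 replicate number. With the running median, 37 of the 38 genes kept their call. The 20 rich calls became 12 with no channel effect or with arrays of that medium alone, 0 with strain as unit with or without the running median, 6 without M8, 7 without M14, 34 without M5, 9 without M32 or M34, and 2 to 19 without 1 replicate number. The 78 pool calls became 31 with equal MAD, 21 with no channel effect and 15 to 89 without 1 array. The 17 calls among M5, M13, M32 and M34 became 90 with equal MAD, 64 with the running median, 36 with the arrays of that medium, 41 with the 21 copper arrays alone, 10 to 24 without 1 array and 2 to 13 without 1 replicate number. Counts of 0 for the medium contrast and among M8, M14 and M22 stayed 0. Same-numbered copper samples of different strains had deviations with r over 0.1 in 49 of 63 pairs (median 0.27, lowest -0.36; median -0.13 for different numbers), and in 58 of 63 with the running median (lowest 0.04). Same-numbered arrays thus leaned together, but not in every pair, and the labels do not say what a number shares, so the block was kept as an alternative. With a replicate block 43 copper, 25 rich and 28 genes among the 4 strains were called, and 81, 42 and 95 with the running median too. Of the 38 genes, 37 lost their call in at least 1 of 42 alternatives (426 lost calls in all), and YJR027W in none.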

Other observations

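A few lists had differences mostly above 0 in copper with no called member. Of 14 maltose and sucrose genes 1 was below 0 and the median difference was 0.28, against 0.11 in rich medium, with the isomaltase gene IMA1 at 0.79 ± 0.31. That value rests largely on M32 replicate 1, at -4.61, and was 0.46 without it. Of 23 genes of the PAU family, cell wall mannoproteins of anaerobic growth, 1 was below 0 (median 0.21, and 0.09 in rich medium). Of 52 amino acid synthesis genes 12 were below 0 (median 0.20, and 0.01 in rich medium). Among all genes 2408 of 5524 were below 0 and the median was 0.03.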
